A study of Mus musculus with 2 samples.

Results

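The genes described here are 10 Wnt pathway genes of the mouse: the secreted Wnt antagonists *Sfrp2*, *Sfrp4*, *Dkk2*, *Dkk3* and *Wif1*, and the Frizzled receptor genes *Fzd1*, *Fzd2*, *Fzd5*, *Fzd7* and *Fzd8*. They were chosen as members of the antagonist and receptor families around *Sfrp2*, a gene that the study itself followed up because of its difference between the cell lines, so they were chosen by their measured tag counts in these same libraries and the levels below are given as a description without a test. Of the 10 genes, 9 had at least 1 listed sense tag that matched no other gene, among 14450 genes with such a tag in all. The study compared GC-1spg, a line derived from type B spermatogonia of a mouse 10 days old and transformed with pSV3-neo, with GC-2spd (ts), a spermatocyte line from a mouse 6 weeks old that was transformed with SV40 large T antigen. Both lines grew in DMEM (10% FBS, sodium bicarbonate at 1.5 g/L), both carried viral transforming genes, and neither received a treatment. Each line gave 1 library of digital gene expression (DGE) tags, and the lines differ in origin, donor age and transformation, which cannot be told apart from the stage named for them.

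Wnt proteins are secreted, lipid-bearing ligands. A Wnt binds the cysteine-rich domain of a Frizzled, a receptor that spans the membrane, together with a coreceptor such as Lrp5 or Lrp6; in the canonical branch this stabilises β-catenin, which acts with Tcf/Lef factors in the nucleus. The secreted frizzled-related proteins (Sfrp) carry a Frizzled-like cysteine-rich domain and can bind Wnt, Wif1 binds Wnt through a domain of its own, and Dickkopf proteins such as Dkk1 and Dkk2 bind Lrp5 and Lrp6 instead. In the testis, Wnt signaling takes part in the function of Sertoli cells and in the maintenance of spermatogonia.

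A DGE tag is the CATG recognition site of the enzyme NlaIII and the 17 bases that follow it, cut next to the site nearest the poly(A) tail where digestion is complete. Each mRNA molecule gives 1 tag, so levels were scaled to the library and not to transcript length, and are given in tags per 1000000 clean tags (TPM). The GC-1spg library held 5072149 clean tags, so that 1 copy equals 0.197 TPM, and the GC-2spd (ts) library 4726808, where 1 copy equals 0.212 TPM. Tags with a single copy had been removed, and tags that matched more than 1 gene or only the antisense strand were not counted. Thus "not listed" means fewer than 2 copies of each sense tag that matched the gene alone. Main tags of the members other than *Dkk2* and *Fzd8* are shown, with the CATG in capitals, because the counts rest on them. Positions are those of GRCm38.

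The printed tags of *Sfrp2*, on the plus strand of chromosome 3, lay at chr3:83774068-83774088, chr3:83773686-83773706 and chr3:83773816-83773836, all in the 3′ UTR of exon 3.
Sfrp2 main tag: CATGatgccctcaaataaaaa
Sfrp2 further tag: CATGactatttttatgaagtt
Sfrp2 further tag: CATGtcaggcgaattgtttct
The other printed antagonist tags lay in a 3′ UTR, *Sfrp4* at chr13:19632788-19632808 and chr13:19632504-19632524 (plus strand, exon 6), *Dkk3* at chr7:112116137-112116157 (minus strand, exon 8) and *Wif1* at chr10:121100067-121100087 (plus strand, exon 10).
Sfrp4 main tag: CATGtttttgataaaggcagg
Sfrp4 further tag: CATGtctcgtaatgatagctt
Dkk3 main tag: CATGggagcgctatgtgctaa
Wif1 tag: CATGatggtatagattttctt
The printed receptor tags lay in a 3′ UTR except the further tag of *Fzd2*, which was in coding sequence. They were *Fzd1* at chr5:4753921-4753941 (minus strand), *Fzd2* at chr11:102607927-102607947 and chr11:102606424-102606444 (plus strand), *Fzd5* at chr1:64730961-64730981 (minus strand) and *Fzd7* at chr1:59486921-59486941 and chr1:59486769-59486789 (plus strand).
Fzd1 main tag: CATGagatcatctatatttat
Fzd2 main tag: CATGctaaagaagcgatctga
Fzd2 further tag: CATGgcgagaccactgtgtga
Fzd5 main tag: CATGccacatccagtactcag
Fzd7 main tag: CATGtacagatcacgaataaa
Fzd7 further tag: CATGtgaaatttgtaaaatag

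With a ratio of at least 2 as the limit, 4 of the 10 genes were higher in GC-2spd (ts) (*Sfrp2*, *Dkk3*, *Fzd2* and *Fzd8*) and 2 were lower (*Fzd1* and *Fzd7*). By the same rule 16.2% of all 14450 genes were higher and 11.7% were lower, many of them at a few copies. *Sfrp4* and *Fzd5* stayed within the limit, *Wif1* had too few copies for a ratio, and *Dkk2* was not listed. The median log2 ratio of the 9 listed genes was 0.20 with 0.5 tags added to both counts, beside 0.13 over all genes. The members were chosen with such values known, so these shares are given side by side and nothing is read from them.

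**Figure D1:**
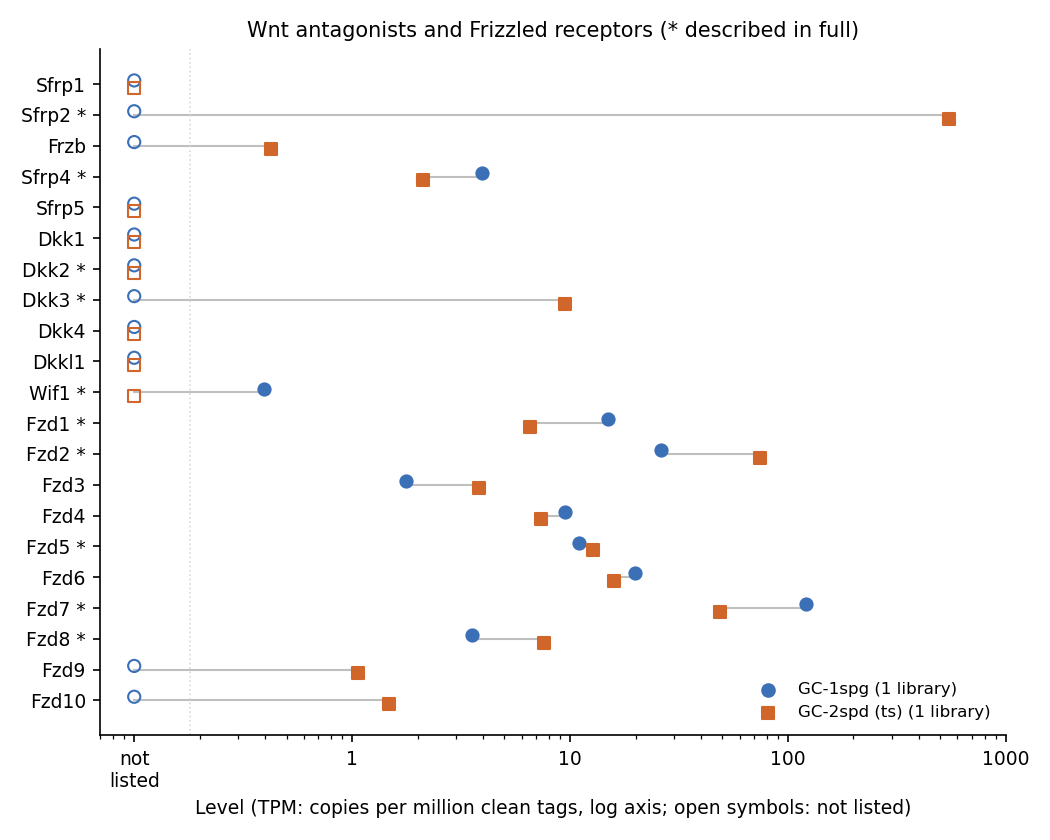
Level of each Sfrp, Dkk, Wif1 and Frizzled gene in the 2 libraries, in TPM on a log axis, with circles for GC-1spg, squares for GC-2spd (ts), and open symbols at the left for genes that were not listed. *Sfrp2* spans from not listed to 550 TPM, while the 8 Frizzled genes listed in both libraries sit within a 3-fold difference.

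*Sfrp2* (ENSMUSG00000027996.13, chr3:83766321-83774316, plus strand) encodes a secreted frizzled-related protein. It was not listed in GC-1spg and had 2601 copies of 16 distinct tags in GC-2spd (ts), or 550 TPM. The limit allowed for unlisted single copies was 24.3 copies, or 4.79 TPM in GC-1spg, and against that limit the GC-2spd (ts) level of *Sfrp2* was higher by at least 115-fold. The gene alone held 97.9% of the copies of the secreted antagonist families in that library.

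The copies of *Sfrp2* came from 7 CATG sites of a transcript of 2003 bases. The site nearest the 3′ end, 228 bases before it, gave 2383 copies, or 91.6% of the total with an exact (Clopper-Pearson) 95% interval of 90.5% to 92.7%. Sites 610 and 480 bases before the end gave 114 and 82 copies, and the remaining 4 sites gave 3 to 9 copies each. The last 3 of these, 985, 1207 and 1348 bases before the end, lie upstream of the 3′ UTR, which has 894 bases. Only 21 of the 2601 copies had a mismatch to the reference. A further 17 copies matched *Sfrp2* and an overlapping gene on the other strand equally well and were left out of the sum.

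The opposite strand of the *Sfrp2* 3′ end was also tagged. Here the annotation holds *Gm26771* (ENSMUSG00000097250.1, chr3:83773853-83789956, minus strand, 3 exons), an antisense gene that overlaps *Sfrp2* by 464 bases and was singled out after its values were seen. Nearly all copies of its tags match the 2 genes on opposite strands equally well, and those were counted for neither gene; 2 copies in GC-2spd (ts) came from a site outside the overlap. Together its tags had 2 copies in GC-1spg against 951 copies in GC-2spd (ts), or 0.394 and 201 TPM. The ratio was 510, with an exact 95% interval of 141 to 4220 for counting error. The 951 copies amounted to 36.6% of the *Sfrp2* sense copies in GC-2spd (ts). The most frequent of these tags, at chr3:83773970-83773990 on the minus strand, had 2 and 834 copies.
Gm26771 main tag: CATGagggcataaaacgagca
Because CATG reads the same on both strands, 1 site can give a sense and an antisense tag. At the site of the most frequent antisense tag, 848 antisense copies and 0 sense copies were found in GC-2spd (ts). At the site of the main *Sfrp2* tag the order was the other way round, with 99 antisense and 2383 sense copies. Tags that lay antisense to *Sfrp2* alone, outside *Gm26771*, added 38 copies in GC-2spd (ts) and 0 in GC-1spg.

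**Figure D2:**
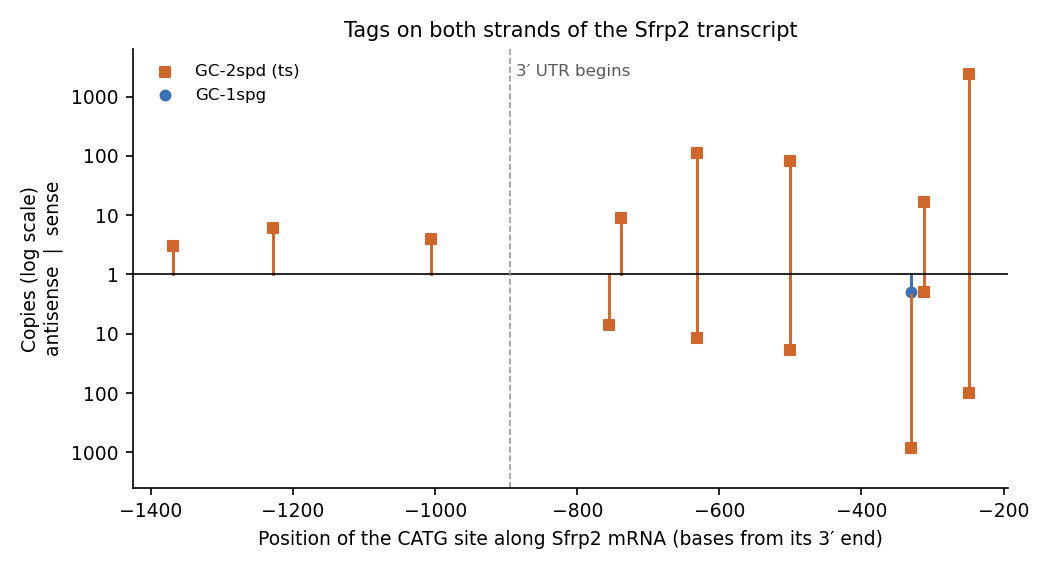
Copies of sense tags (upward) and antisense tags (downward, mostly the *Gm26771* tags) at each CATG site of *Sfrp2* mRNA, on a log scale that starts at 1 copy, against the distance in bases from the 3′ end of the mRNA. Squares stand for GC-2spd (ts) and the 1 circle, at 2 antisense copies, for GC-1spg; the 2383-copy sense site and the 848-copy antisense site are different sites.

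*Sfrp4* (ENSMUSG00000021319.7, chr13:19623104-19632994, plus strand), another secreted frizzled-related protein gene, had 20 copies in GC-1spg against 10 in GC-2spd (ts), or 3.94 and 2.12 TPM. The log2 ratio of −0.90 had an interval of −2.16 to 0.26, and a difference was not detectable at this depth. A tag 21 bases before the end of an annotated transcript of 1764 bases gave 11 and 10 copies, one 176 bases before the end of a transcript of 1062 bases gave 7 and 0, and one in a transcript of 4049 bases gave 2 and 0. *Frzb*, also called Sfrp3, had 0 and 2 copies, and *Sfrp1* and *Sfrp5* were not listed in either library.

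*Dkk3* (ENSMUSG00000030772.6, chr7:112116017-112159057, minus strand) is a divergent Dickkopf gene whose product is not known as a strong ligand of Lrp5 and Lrp6. It was not listed in GC-1spg and had 45 copies of 4 distinct tags (9.52 TPM) in GC-2spd (ts). This was at least 5.28-fold above the limit of 1.8 TPM in GC-1spg. The site nearest the 3′ end gave 34 of these copies, and sites 981 and 1481 bases before the end gave 7 and 4. *Dkk2* (ENSMUSG00000028031.6, chr3:132085292-132180304, plus strand) had 0 copies in both libraries although the reference holds 19 tags that it could give. *Dkk1*, *Dkk4* and the related *Dkkl1* were not listed either, with 6, 3 and 7 reference tags.

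*Wif1* (ENSMUSG00000020218.11, chr10:121033960-121100650, plus strand), the Wnt inhibitory factor gene, had 2 copies in GC-1spg, or 0.394 TPM, and 0 in GC-2spd (ts). Both counts lie under the limit for an unlisted tag of 4.74 copies, and no ratio was formed. Over the 11 genes of the Sfrp, Dkk and Wif1 families, 5 were listed, and the copies added up to 22 in GC-1spg against 2658 in GC-2spd (ts), or 4.34 and 562 TPM. Without *Sfrp2* the sums were 22 and 57 copies, or 4.34 and 12.1 TPM, so *Sfrp2* carried nearly the whole difference of the families.

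Single Frizzled genes passed 2-fold in both directions, while the summed level of the receptors was close in the 2 libraries. The 10 Frizzled genes together had 1057 copies in GC-1spg against 849 in GC-2spd (ts), or 208 and 180 TPM. The log2 ratio was −0.21, with an interval of −0.35 to −0.08 for counting error only. The other scales tried shifted all log2 ratios by −0.08 and −0.17. In GC-1spg 8 of the 10 genes were listed and in GC-2spd (ts) all 10. The order of the receptors differed between the libraries, with *Fzd7* first in GC-1spg and *Fzd2* first in GC-2spd (ts).

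*Fzd7* (ENSMUSG00000041075.8, chr1:59482424-59486955, plus strand), a receptor gene known from stem cells and early development, had 616 copies in GC-1spg against 230 in GC-2spd (ts), or 121 and 48.7 TPM. It was 2.50-fold lower in GC-2spd (ts), with an interval of 2.14 to 2.92. Its share of all Frizzled copies was 58.3% (exact 95% interval 55.2% to 61.3%) in GC-1spg and 27.1% (24.1% to 30.2%) in GC-2spd (ts).

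*Fzd2* (ENSMUSG00000050288.6, chr11:102604396-102608058, plus strand), which encodes a receptor that also takes Wnt5a signals, had 133 and 352 copies, or 26.2 and 74.5 TPM. It was 2.84-fold higher in GC-2spd (ts), with an interval of 2.32 to 3.49. Its share of the Frizzled copies was 12.6% (10.6% to 14.7%) in GC-1spg and 41.5% (38.1% to 44.9%) in GC-2spd (ts). Thus the 2 genes together made up most of the receptor tags in both libraries, with their order exchanged.

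**Figure D3:**
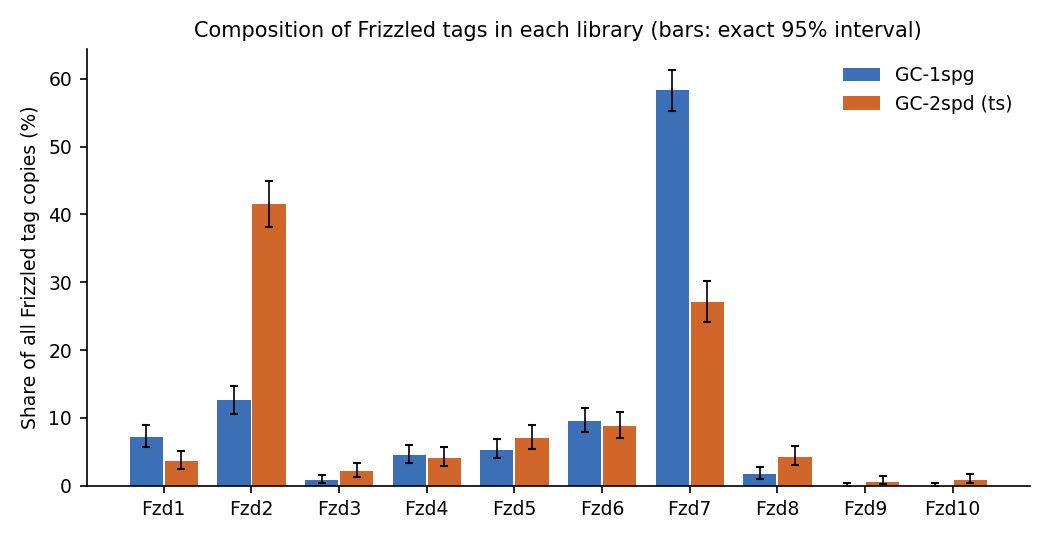
Share in percent of all Frizzled tag copies held by each of the 10 receptor genes in GC-1spg (1057 copies) and GC-2spd (ts) (849 copies), with exact 95% intervals for counting error. *Fzd7* takes 58.3% and 27.1% and *Fzd2* 12.6% and 41.5%, while every other receptor stays under 10% in both libraries.

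*Fzd1* (ENSMUSG00000044674.6, chr5:4753839-4758035, minus strand), a close relative of *Fzd2* and *Fzd7* in sequence, had 76 and 31 copies, or 15.0 and 6.56 TPM. It was 2.28-fold lower in GC-2spd (ts), with an interval of 1.49 to 3.59, and had the same direction as *Fzd7* and not that of *Fzd2*. *Fzd5* (ENSMUSG00000045005.9, chr1:64730558-64737751, minus strand), a receptor of the canonical branch, had 56 and 60 copies, or 11.0 and 12.7 TPM. Its log2 ratio of 0.20 had an interval of −0.35 to 0.75, which leaves room for a difference of either sign. *Fzd8* (ENSMUSG00000036904.6), the closest relative of *Fzd5*, had 18 and 36 copies, or 3.55 and 7.62 TPM, a ratio of 2.15 with an interval of 1.19 to 4.01. Scaling by trimmed mean of M values (TMM), which shifted all log2 ratios by −0.17, put *Fzd8* under the 2-fold limit and *Sfrp4* past it.

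The 5 other Frizzled genes gave no call in the two-sided Audic-Claverie test with Benjamini-Hochberg adjustment over 14450 genes (FDR 0.001 or less, 2-fold or more), which called 11.7% of all genes higher and 7.84% lower. *Fzd6*, a receptor of the planar cell polarity branch, had 101 and 75 copies, or 19.9 and 15.9 TPM. *Fzd4* had 48 and 35 copies. *Fzd3* had 9 and 18 copies, a ratio of 2.15 with an interval of 0.916 to 5.42, and an Audic-Claverie FDR of 0.147. By ratio alone, the rule used for the members, *Fzd3* would count as higher, as *Fzd8* did at the same ratio. Over all Frizzled genes, members included, the test called 1 higher and 2 lower. Thus not every receptor described as higher by ratio passed the test. The members were chosen by their counts, so this tally is given only as a description. *Fzd9* and *Fzd10* had 0 copies in GC-1spg against 5 and 7 copies in GC-2spd (ts). In GC-1spg the order of levels ran from *Fzd7* over *Fzd2*, *Fzd6*, *Fzd1*, *Fzd5*, *Fzd4* and *Fzd8* to *Fzd3*; the intervals of the shares overlapped between neighbours except for *Fzd7* over *Fzd2* and *Fzd4* over *Fzd8*. In GC-2spd (ts) *Fzd2* stood above *Fzd7* and *Fzd7* above *Fzd6*, without overlap of their intervals, and each neighbour below overlapped the next.

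The Frizzled receptors differed in which CATG site gave the tags. *Fzd2* and *Fzd7* are genes of 1 exon, with mRNAs of 3663 and 4532 bases. For *Fzd2*, the site 111 bases before the 3′ end gave 98 of 133 copies in GC-1spg (73.7%, 65.3% to 80.9%) and 198 of 352 in GC-2spd (ts) (56.2%, 50.9% to 61.5%). The other main tag ends on the last base of the coding sequence, where the 3′ UTR of 1614 bases begins, and gave 35 copies (26.3%, 19.1% to 34.7%) and 145 copies (41.2%, 36.0% to 46.5%). The intervals of the 2 libraries, which cover counting error only, did not overlap at either site. The difference was not tested. With the site nearest the 3′ end alone, the log2 ratio of *Fzd2* was 1.12 (0.76 to 1.48) instead of 1.51 (1.21 to 1.8).

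For *Fzd7*, the site 14 bases before the 3′ end gave 482 copies in GC-1spg (78.2%, 74.8% to 81.4%) and 206 in GC-2spd (ts) (89.6%, 84.9% to 93.2%). The next site, 166 bases before the end, gave 119 copies (19.3%, 16.3% to 22.7%) and 18 copies (7.83%, 4.70% to 12.1%). Here GC-2spd (ts) had the larger share at the last site, the opposite of *Fzd2*. All *Fzd8* tags came from sites 2386 and 2759 bases before the end of an annotated mRNA of 5974 bases, with 6 and 12 copies in GC-1spg against 19 and 17 in GC-2spd (ts). The 11 CATG sites nearer to its 3′ end gave no listed tag.

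**Figure D4:**
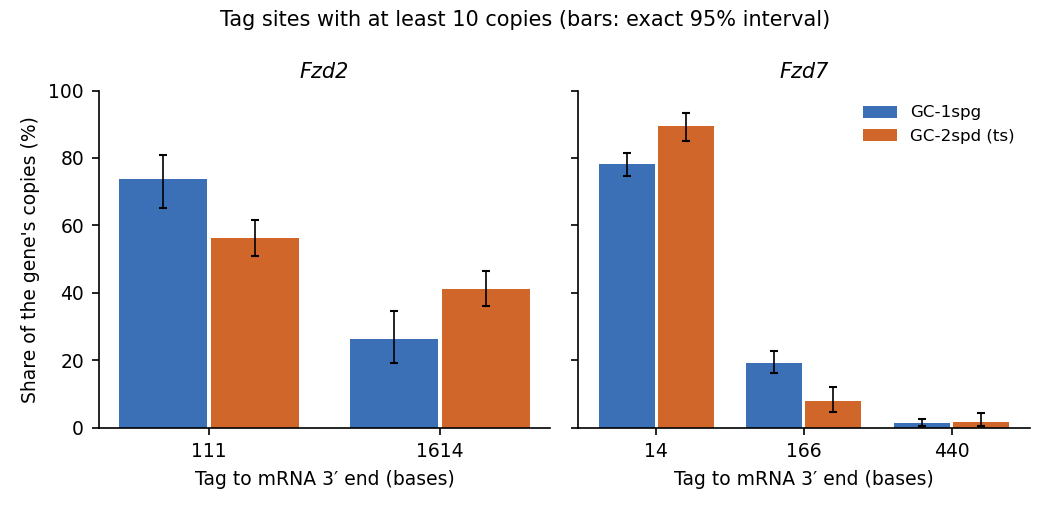
Share in percent of the copies of *Fzd2* (left) and *Fzd7* (right) at each CATG site with at least 10 copies over both libraries, by the distance in bases from tag to mRNA 3′ end, with exact 95% intervals. The share at the site nearest the end is 73.7% in GC-1spg against 56.2% in GC-2spd (ts) for *Fzd2*, and 78.2% and 89.6% for *Fzd7*.

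Antisense tags of the Frizzled genes numbered 254 in GC-1spg against 120 in GC-2spd (ts), or 24 and 14.1 for each 100 sense copies, beside 13.9 and 12.2 over all genes. Of these, 238 and 115 lay at a CATG site that also gave sense tags in at least 1 library. *Fzd7* had 155 and 30 antisense copies, *Fzd6* 51 and 15, and *Fzd2* 24 and 52. These are tags that match no other gene; tags antisense to *Fzd7* that also matched other genes had 22 and 33 further copies and were left out. In *Fzd2*, 18 and 49 of these came from 1 site, 264 bases before the end, which gave 0 and 7 sense copies.

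Other genes of the pathway were counted by list with the same test, which compares 2 libraries and not 2 kinds of cell. Outside the 10 genes, 76 pathway genes were listed, of which 12 (15.8%) passed as higher in GC-2spd (ts) and 11 (14.5%) as lower, beside 11.7% and 7.84% of all genes. Of the 19 Wnt ligand genes, 13 were listed, 3 were called higher and 5 lower, and their summed level was 259 TPM in GC-1spg against 71.5 TPM in GC-2spd (ts). *Wnt10a* made up most of that difference, with 885 and 0 copies. *Wnt4*, *Wnt6*, *Wnt9a* and *Wnt11* were called lower with 141 and 36, 69 and 0, 39 and 5, and 77 and 2 copies, and *Wnt5a* and *Wnt10b* higher with 71 and 153 and 11 and 118 copies. The genes for Wnt release, *Wls* and *Porcn*, had 1170 and 1261 and 29 and 31 copies and were not called.

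Of 7 coreceptors and alternative receptors, all were listed, 2 were called higher and 1 lower. The atypical Wnt receptor gene *Ryk* had 339 and 654 copies, *Ror2*, a receptor for Wnt5a, 37 and 73, and *Ror1* 34 and 7. The calls of *Ryk* and *Ror2*, and that of *Pygo2* below, were lost under TMM scaling. An exact test of edgeR with a biological coefficient of variation set to 0.2 lost these calls too. It also lost those of *Ror1*, *Wnt4*, *Wnt5a* and *Wnt9a*, and those of *Apc* and *Prickle2* below. *Lrp5* and *Lrp6*, which bind Wnt together with Frizzled and are the targets of Dickkopf proteins, had 31 and 35 and 146 and 226 copies and were not called. *Kremen1*, a receptor for Dickkopf proteins, had 115 and 102 copies and was not called.

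In the list of R-spondins, their receptors and the Frizzled ubiquitin ligases, 7 of 9 genes were listed, with 0 called higher and 2 lower. *Rnf43*, which encodes a ligase that removes Frizzled from the cell surface, had 46 copies in GC-1spg against 0 in GC-2spd (ts), lower by at least 9.04-fold (Audic-Claverie FDR 5.80e-13). The call of *Rnf43* was lost in an exact test of edgeR with a biological coefficient of variation set to 0.4. *Rspo3*, named because it is the only other call of the list, had 23 and 0 copies. Among 9 further Wnt antagonists 4 were listed and 1 was called, *Apcdd1*, a membrane-bound inhibitor, with 16 and 81 copies. Its call was lost when only the CATG site nearest the 3′ end was counted, as were those of *Wnt4* and *Apc*.

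Of 9 target and feedback genes of the canonical branch, 6 were listed, 1 was called higher and 1 lower. *Axin2*, a feedback inhibitor widely read as a target of β-catenin, had 183 copies (36.1 TPM) in GC-1spg against 2 copies (0.423 TPM) in GC-2spd (ts); its log2 ratio was −6.41, with an interval of −9.47 to −4.54 (Audic-Claverie FDR 5.96e-48). *Cd44*, a cell surface receptor for hyaluronan and a target in intestinal cells, had 165 and 1464 copies, a log2 ratio of 3.25 with an interval of 3.02 to 3.49 (Audic-Claverie FDR 3.75e-278). *Myc* had 898 and 678 copies and *Ccnd1* 171 and 248, neither of them called. The 2 calls of the list thus had opposite directions. These FDRs cover counting error only. In an exact test of edgeR with a biological coefficient of variation set to 0.4, the call of *Cd44* was lost and that of *Axin2* was kept.

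In the cytoplasmic relay 11 of 12 genes were listed and 1 was called, *Apc*, a member of the β-catenin destruction complex, with 101 and 236 copies. Of 8 Tcf/Lef factors and coactivators, all were listed and 2 were called higher, among them *Pygo2*, a coactivator that binds methylated histone H3, with 166 and 324 copies. Of 13 planar cell polarity genes 11 were listed, 2 were called higher and 2 lower. *Prickle2* had 19 and 52 copies, *Celsr1* 31 and 0, and *Daam2*, a formin that binds Dishevelled, 144 and 3.

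**Figure D5:**
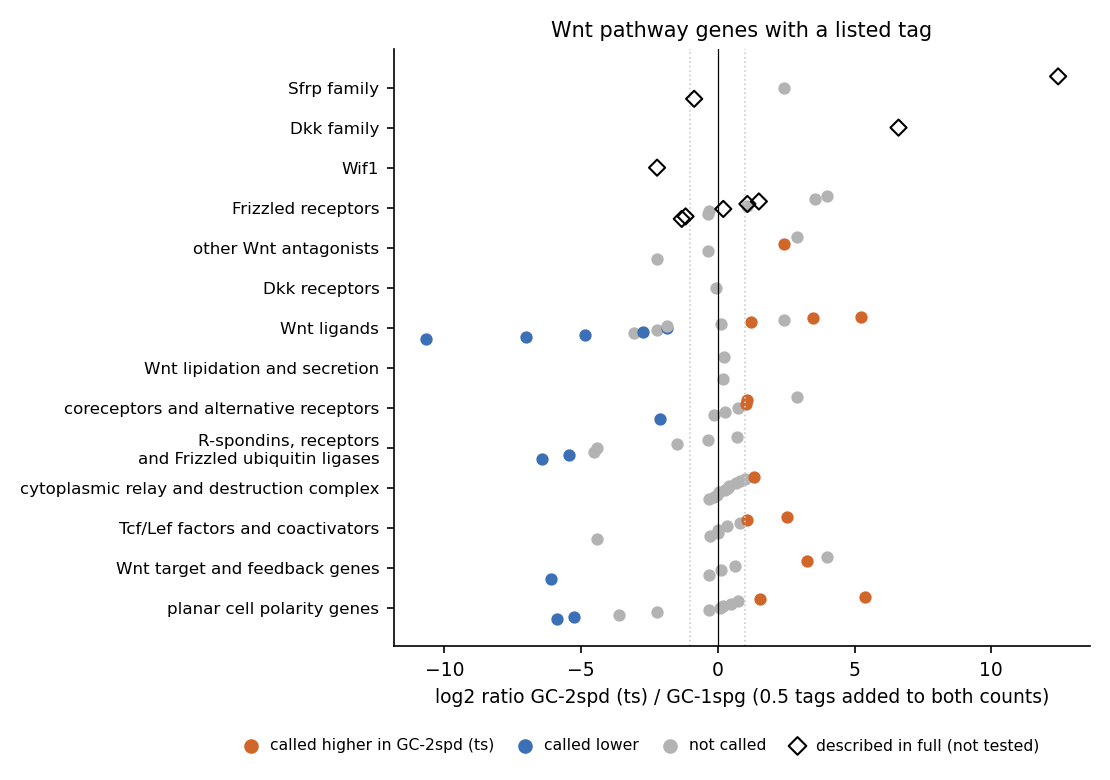
log2 ratio of GC-2spd (ts) over GC-1spg for each Wnt pathway gene with a listed tag, by list, with 0.5 tags added to both counts; filled points are other pathway genes, coloured by their Audic-Claverie call, and open diamonds are the 9 listed genes described in full. Dotted lines mark a log2 ratio of −1 and 1. Of the relay genes, *Apc* alone (log2 ratio 1.33) is called, and of the ligands 3 are called higher and 5 lower.

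The study describes both lines as derived from male germ cells, and none of 12 male germ cell markers, *Ddx4* and *Dazl* among them, was listed in either library. Of 9 fibroblast genes 7 were listed, with 3 called higher and 2 lower by the Audic-Claverie test. Their summed level was 2540 TPM in GC-1spg against 1380 in GC-2spd (ts), a difference set by *Col1a1* (10465 and 2425 copies) and *Dcn* (710 and 2), while *Vim* had 984 and 2897 copies, *Col3a1* 50 and 120 and *Pdgfrb* 0 and 84. Of 7 Sertoli cell genes 4 were listed (135 and 38.9 TPM), with 1 called higher, *Gata4* (29 and 138 copies), and 1 lower, *Wt1* (620 and 0); *Sox9* had 29 and 46 and *Amh* 5 and 0. Of 7 Leydig cell genes 3 were listed (0.789 and 40.8 TPM), with 1 called higher, *Nr5a1* (0 and 188 copies, 0 and 39.8 TPM). *Star* had 2 and 5 copies and *Cyp11a1* 2 and 0. All 5 peritubular myoid cell genes were listed (13.0 and 122 TPM), with 1 called higher, *Acta2* (50 and 555 copies, 9.86 and 117 TPM). The rest had few copies, *Cnn1* 5 and 15, *Tagln* 0 and 3 and *Myh11* 0 and 2, while *Des* went the other way with 11 and 4. Among defining markers *Fshr* of Sertoli cells and *Insl3* of Leydig cells were at 0 in both libraries. These levels differed between the libraries beside the *Sfrp2* and Frizzled levels, and their part in the result was not tested.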

How the data were processed

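The data are 2 DGE libraries, 1 for each cell line. The authors discarded adaptors, tags of poor quality and those seen once, and deposited the sequence, count and TPM (count per 1000000 clean tags) of every remaining tag. Tags (CATG and 17 bases) were matched here to 141767 transcripts of GENCODE M21 (GRCm38) on both strands, exact matches first, then with 1 mismatch; a tag whose best matches all fell in 1 gene was taken as unambiguous, and such sense counts were summed per gene. The authors' own matching used UniGene and was not used. Intervals are exact (Clopper-Pearson, conditional binomial, 95%) and cover counting error only, since DGE tags are amplified without molecular identifiers. The limit for an unlisted gene is the one-sided 95% Poisson bound that allows it 1 copy per distinct tag of the other library. The two-sided Audic-Claverie test called genes at an FDR of 0.001 or less and 2-fold or more, with 0.01 TPM in place of 0. With 1 library per line edgeR's quasi-likelihood test could not be fitted; its exact test, with the biological coefficient of variation (BCV) set by hand, was an alternative.

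The members and all gene lists were chosen with earlier results of these data known. The text names every Sfrp, Dkk, Wif1 and Fzd gene and each called pathway gene with at least 30 tags; uncalled pathway genes, marker genes, *Rspo3* and *Gm26771* were named beyond that rule, after their values were seen. The calls were first tested on simulated counts with Poisson spread only. Such counts hold no variation between libraries of the same line, so that check could not cover it. Counts and intervals were computed in Python 3.11.15 (numpy 2.4.6, pandas 2.3.3, scipy 1.17.1), TMM factors and the exact test in R 4.3.3 (edgeR 4.0.16), and plots drawn with matplotlib 3.10.9.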

Additional observations from a re-analysis of the deposited data

How the results depend on the processing

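Each cell line had 1 library, so no value has a replicate check, and every interval covers counting error only. The alternatives included exact matching, other CATG sites, both strands, sense matches preferred, no pseudogenes, other scales, a minimum of 10 tags and other tests. Of 136 values recomputed under them, 123 stayed within the limits set for each value alone and 13 moved. The limits were wide: a fall of all genes called higher from 1684 to 1292 under TMM scaling counted as within them. The tally therefore says little about how stable the values are. No log2 ratio of a member changed sign. Under TMM scaling 3 members were past 2-fold higher and 3 lower, in place of 4 and 2. Under the exact test of edgeR at a BCV set to 0.2, 4 pathway genes were called higher and 8 lower, and 511 genes of all were called higher and 489 lower. At a BCV set to 0.4, 0 pathway genes were called higher and 4 lower, and 108 genes of all were called higher and 136 lower; the 4 pathway genes still called lower were *Wnt6*, *Wnt10a*, *Axin2* and *Daam2*. With a limit of 3-fold, chosen after seeing the data, 2 members were higher (*Sfrp2* and *Dkk3*) and 0 lower. Exact matching alone gave *Sfrp2* a bound of 211-fold, since fewer distinct tags then set its limit. With only the CATG site nearest the 3′ end, *Fzd8* had no listed tag. TMM scaling changed the split of calls over all genes from 1684 higher and 1133 lower (59.8% higher) to 1292 and 1443 (47.2%), and that of pathway genes from 12 and 11 to 9 and 12. With 1 tag added in place of 0.5, the median log2 ratio of the Sfrp family went from 2.42 to 1.69. That of the R-spondin list went from −4.42 to −3.48. The Sfrp median was the value of *Frzb*, with 0 and 2 copies, and depends on the tag added. With genes unlisted in 1 library set to their bound, and to 0 under the limit, the medians were 0.0 and −1.24. No paired analysis was possible because each cell line has 1 library.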
